A study of Mus musculus with 9 samples.

Results

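The 38 neural and glial lineage markers described here are genes used to tell neural precursors, oligodendrocyte precursors, myelinating oligodendrocytes, astrocytes and neurons apart, with Cd44 and Zeb1 as markers of a mesenchymal state. They were taken from a fixed list of symbols, chosen with earlier results of these data known. All 38 were found among the 55401 gene IDs of the count tables. Of these, 24 passed the filter on low counts and were tested among 15659 genes in all, and 14 did not. The cells are NP53, a mouse line of diffuse midline glioma (DMG, a childhood brain tumour of the brainstem and thalamus) grown in medium with serum. G1C7 and G2C9 are derivatives of NP53 that carry the genotype label TIM-3 knockout, and Gcontrol is NP53 with the genotype label WT. Polyadenylated RNA was sequenced from 3 libraries of each group. The sources used here do not say how the derivatives were made, whether each is a single clone, or whether libraries came from separate cultures. The knockout label is thus carried by 2 lines only, and a difference of a derivative from Gcontrol cannot be told apart from a difference between cell lines. The p-values cover the spread among these libraries alone, which may be technical.

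Glial and neuronal lineages arise from neural precursors that carry the transcription factor SOX2 and the intermediate filament nestin. Oligodendrocyte precursors are set up by OLIG1 and OLIG2 and then SOX10, and are recognised by PDGFRA and by the proteoglycan NG2, the product of Cspg4. Myelin genes follow once the precursors mature, SOX9, GFAP and the glutamate transporters mark astrocytes, and doublecortin, βIII-tubulin and NeuN mark neurons. Diffuse midline glioma cells are known for a state close to that of the oligodendrocyte precursor, with OLIG2 as a usual marker. In RNA from a whole culture, fewer cells of a type and less RNA per cell cannot be told apart.

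The libraries held between 50110129 and 56035382 reads in genes, with both mates of a pair counted. Of the G1C7 libraries replicate 2 stood apart, and of the G2C9 libraries replicate 3. Over all genes tested, the root mean square difference in log2 CPM was 0.932 to 0.944 between G1C7 replicate 2 and the others of G1C7, against 0.416 between those others. It was 0.762 to 0.770 between G2C9 replicate 3 and the others of G2C9, against 0.438 between those others, and 0.363 to 0.386 within Gcontrol. For the markers, calls that were gained or lost without these 2 libraries are given beside the gene or with the counts without them. The 2 were picked as the most distant in these same data, and leaving them out kept 2 libraries in each derivative. That choice lowers the spread, so the adjusted p-values without them are likely too small. The same holds where only G1C7 replicate 2 was left out. Havcr2, which encodes TIM-3, had 55, 6 and 66 reads in G1C7 and 39, 30 and 28 in G2C9, against 74, 58 and 60 in Gcontrol, and did not pass the test in either derivative (adjusted p = 0.586 and 0.448). Levels below are RPKM, reads scaled to exon length and library size, so that genes can be compared per length. Changes are log2 fold changes ± SE from edgeR's quasi-likelihood test, and a call is an adjusted p (Benjamini-Hochberg, all 15659 genes) under 0.05.

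The founding transcription factors of the oligodendrocyte lineage were not read in any of the 9 libraries. Olig1 and Olig2 had 0 reads in G1C7, in G2C9 and in Gcontrol. Counting 3 read pairs over a group as the limit that a count of 0 allows, Olig2 lay under 0.0145 RPKM in G1C7, 0.0157 in G2C9 and 0.0144 in Gcontrol. These limits cover counting error only, while each SD and SE covers the spread among libraries. Sox10, the SOX factor that acts downstream of OLIG2, had 0 reads in G1C7, 2 in G2C9 and 2 in Gcontrol. Sox8, its relative, had 0 reads in G1C7, 0 in G2C9 and 6 in Gcontrol. With 6 reads (3 pairs) or fewer over a group taken as silent, 9 of the 38 markers were silent in each group. Besides these 4 they were Prom1, the stem cell surface protein CD133, Pou3f2, the neural factor BRN2, Mag, a myelin glycoprotein, Aqp4, the water channel of astrocyte end feet, and Dcx, doublecortin. The libraries thus lacked Olig2 reads, while the other markers used to check the labelled cell type (Pdgfra, Sox2 and Nes) were present, with Pdgfra at 33.1, 49.0 and 33.0 RPKM in G1C7 and 41.3, 38.9 and 54.0 RPKM in G2C9, against 24.8, 23.7 and 25.7 RPKM in Gcontrol. Their presence does not by itself identify the cells. Fibroblast and pericyte genes, described below, summed to 1044 to 1087 RPKM in Gcontrol.

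A further 3 markers were silent in some groups. Rbfox3, which encodes the neuronal nuclear protein NeuN, had 0 reads in both derivatives and 8 in Gcontrol. Bcan, the proteoglycan brevican, had 12 reads in G1C7, 2 in G2C9 and 0 in Gcontrol. Fabp7, the fatty acid binding protein of radial glia, had 4, 6 and 10 reads in G1C7 and 0, 0 and 2 in G2C9, against 8, 10 and 8 in Gcontrol. Mog, a late myelin protein, and S100b, a calcium-binding protein of glia, had at most 10 and 13 reads in any library. These 5 were not tested, and no difference is read from such counts.

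The window around the transcription start of Olig2 is shown because this gene defines the lineage and was not read. It lies on chr16:91225300-91225599 (plus strand, GRCm38.p6, RefSeq), is 65.0% G or C and holds 25 CG pairs, against medians of 52.7% and 7 over the 32851 windows of the table. Capitals mark the letters AACAAT, which SOX factors are known to bind, read on the minus strand.
Olig2: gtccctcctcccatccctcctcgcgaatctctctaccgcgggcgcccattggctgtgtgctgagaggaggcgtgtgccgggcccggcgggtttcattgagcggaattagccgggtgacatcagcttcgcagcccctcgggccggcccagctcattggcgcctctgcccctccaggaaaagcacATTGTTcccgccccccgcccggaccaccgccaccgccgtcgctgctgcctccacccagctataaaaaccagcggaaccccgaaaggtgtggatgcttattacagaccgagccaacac
On either strand, AACAAT occurred in 10.7% of all windows and in 1 of the 30 markers that have a window. The 6 silent markers with a window had a median of 65.0% G or C (43.0% to 67.7%), and the other 24 a median of 59.0% (45.3% to 77.7%). These are descriptions of letters, not of sites.

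Per length, the most abundant marker was Vim, the intermediate filament vimentin of precursors and mesenchymal cells. It stood at 472 ± 20.9 RPKM in G1C7 and 413 ± 24.3 in G2C9, against 383 ± 4.47 in Gcontrol (SD, n = 3 each), above 99.5% to 99.6% of the genes tested. Cd44, the hyaluronan receptor of mesenchymal and glioma cells, came next in each group, with 78.7 ± 5.05 RPKM in G1C7, 99.0 ± 3.46 in G2C9 and 79.2 ± 2.55 in Gcontrol. In Gcontrol they were followed by Sox2 (33.8 RPKM), Sox4 (28.5), Nes (18.2), Vcan (16.3), Sox9 (12.9) and Tubb3 (10.2). The Gcontrol libraries of Nes and Vcan overlapped, and those of the other neighbours in that order did not. Vim held 83.8% of the summed RPKM of the precursor markers over the 9 libraries. In the same way 1 gene led each lineage, with Vcan at 84.2% of the oligodendrocyte precursor markers, Cnp at 95.5% of the myelin markers, Sox9 at 94.2% of the astrocyte markers and Tubb3 at 87.7% of the neuronal ones. A lineage sum here is thus close to the level of a single gene, and the changes below are given gene by gene.

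**Figure D1:**
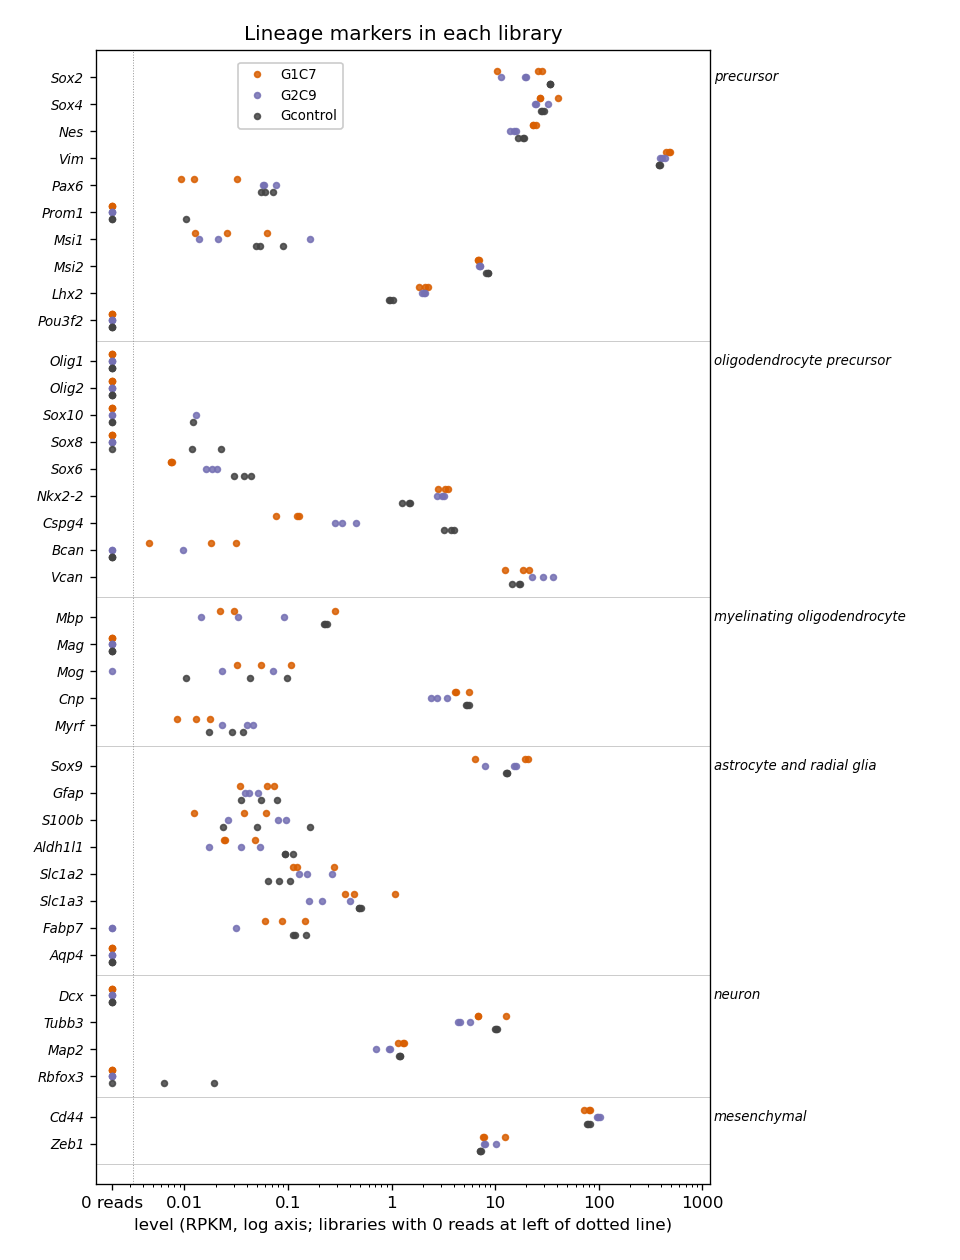
Level of each of the 38 markers (rows, by lineage) in each library, as RPKM on a log axis, with libraries at 0 reads set left of the dotted line and G1C7, G2C9 and Gcontrol as separate points. Vim and Cd44 lie at the right, Olig1, Olig2, Pou3f2, Mag, Aqp4 and Dcx have all 9 libraries at 0, and Cspg4 is the marker whose groups lie farthest apart.

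Of the 24 tested markers, 9 changed in G1C7 against Gcontrol, 4 higher and 5 lower. Among the 5 lower, Aldh1l1 passed the filter on low counts through its Gcontrol libraries, where it was highest. Over all genes tested 17.5% were called in this comparison, 8.77% higher and 8.73% lower. In G2C9 against Gcontrol 8 of 24 changed, 4 higher and 4 lower, where 13.5% of all genes were called, 6.25% higher and 7.22% lower. The markers were chosen with earlier results of these data known, so these counts do not test them as a set. Lhx2 and Nkx2-2 rose in both derivatives, and Msi2 and Cspg4 fell in both. Nes, Vim, Pax6, Sox6 and Aldh1l1 were called in G1C7 alone, and Vcan, Cnp, Tubb3 and Cd44 in G2C9 alone, which does not show that the derivatives differ in them. The comparisons share the Gcontrol libraries. The median log2 fold change of the 24 was 0.00 in G1C7 and -0.15 in G2C9, against 0.02 and 0.01 over all genes, and the median absolute change was 0.38 and 0.65, against 0.32 and 0.28. The libraries of a derivative and of Gcontrol did not overlap for 12 of 24 markers in G1C7 and 18 of 24 in G2C9, against 43.0% and 43.3% of all genes. With no filter on low counts, the calls of Vim, Msi2 and Aldh1l1 in G1C7 and of Msi2 and Cd44 in G2C9 ended (adjusted p = 0.173, 0.0864, 0.0939, 0.191 and 0.137). That of Vim also ended in edgeR with relative log expression size factors in place of TMM (adjusted p = 0.0524). It was kept in the DESeq2 test (adjusted p = 9.81e-04).

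**Figure D2:**
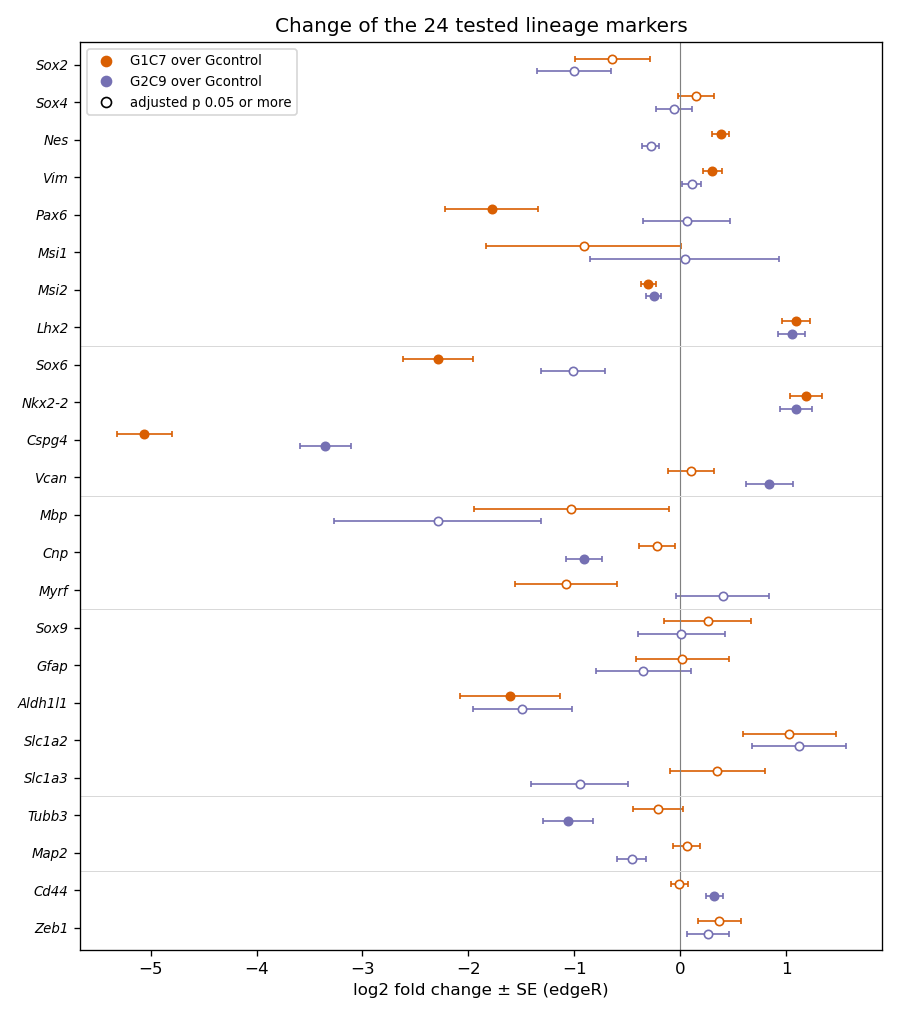
Log2 fold change ± SE of the 24 tested markers in G1C7 and in G2C9 over Gcontrol, with open circles where the adjusted p was 0.05 or more. Cspg4 lies at -5.06 and -3.35, Lhx2 and Nkx2-2 lie between 1.05 and 1.19 in both derivatives, and Nes lies on opposite sides of 0.

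Among markers of the oligodendrocyte precursor, Cspg4 showed the largest change of the tested markers, far below its Gcontrol level in both derivatives. Cspg4 (ENSMUSG00000032911.6, chromosome 9, 56865033 to 56899870, plus strand) encodes the NG2 proteoglycan. It stood at 0.129, 0.0763 and 0.122 RPKM in G1C7 and at 0.335, 0.284 and 0.453 RPKM in G2C9, against 3.73, 3.22 and 4.0 RPKM in Gcontrol. The 3 groups did not overlap, with every G1C7 library under every G2C9 library and both far under Gcontrol. The log2 fold change was -5.06 ± 0.26 in G1C7, at an adjusted p of 3.45e-05, and -3.35 ± 0.24 in G2C9, at an adjusted p of 1.57e-04. Both calls held in 9 of 9 fits that each left out a library. The tested genes within 5 Mb of Cspg4 had median log2 fold changes of 0.19 in G1C7 and 0.16 in G2C9.

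Nkx2-2, a homeodomain factor of the ventral neural tube and of maturing oligodendrocyte precursors, rose in both derivatives. Nkx2-2 (ENSMUSG00000027434.11, chromosome 2, 147177546 to 147194243, minus strand) stood at 3.53, 2.82 and 3.30 RPKM in G1C7 and 3.07, 3.19 and 2.75 in G2C9, against 1.46, 1.25 and 1.52 in Gcontrol. Every derivative library lay above every Gcontrol library. The log2 fold change was 1.19 ± 0.15 in G1C7, at an adjusted p of 0.00146, and 1.09 ± 0.15 in G2C9, at an adjusted p of 0.00246, and both calls held without each library in turn. The median of the tested genes within 5 Mb was 0.11 in G1C7 and 0.16 in G2C9. The antisense gene Nkx2-2os shares 9.67% of the exon bases of Nkx2-2. It had 40 reads in G1C7 and 45 in G2C9, against 20 in Gcontrol, and passed in neither derivative (adjusted p = 0.218 and 0.139). Reads on the shared bases were dropped, and antisense reads on other Nkx2-2 exons would count for Nkx2-2, since counting ignored strand.

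The start windows of these 2 genes and of Lhx2, the precursor factor described next, are shown because they carry the larger of the changes called in both derivatives. Msi2, the other marker called in both, changed less and is not shown. All come from RefSeq on GRCm38.p6. The Cspg4 window is chr9:56864854-56865153 (plus strand), the Nkx2-2 window chr2:147186353-147186652 (minus strand) and the Lhx2 window chr2:38339031-38339330 (plus strand). The Nkx2-2 window lies 7841 bases inside the outermost start that the count tables give. Capitals mark any AACAAT, and any CAGATG or CATATG, letters of the E-box that OLIG and related factors are known to bind, on either strand.
Cspg4: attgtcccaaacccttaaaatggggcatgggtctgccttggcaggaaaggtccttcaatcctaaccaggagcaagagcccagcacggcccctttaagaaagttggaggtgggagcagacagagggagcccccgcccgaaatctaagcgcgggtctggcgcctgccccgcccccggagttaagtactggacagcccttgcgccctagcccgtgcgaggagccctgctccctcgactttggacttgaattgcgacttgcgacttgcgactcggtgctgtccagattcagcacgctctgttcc
Nkx2-2: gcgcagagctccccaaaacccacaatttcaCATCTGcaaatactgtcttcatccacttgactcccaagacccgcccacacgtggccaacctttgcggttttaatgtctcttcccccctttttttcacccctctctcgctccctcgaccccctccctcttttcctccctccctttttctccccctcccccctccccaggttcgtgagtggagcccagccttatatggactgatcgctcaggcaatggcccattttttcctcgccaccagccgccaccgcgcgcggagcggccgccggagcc
Lhx2: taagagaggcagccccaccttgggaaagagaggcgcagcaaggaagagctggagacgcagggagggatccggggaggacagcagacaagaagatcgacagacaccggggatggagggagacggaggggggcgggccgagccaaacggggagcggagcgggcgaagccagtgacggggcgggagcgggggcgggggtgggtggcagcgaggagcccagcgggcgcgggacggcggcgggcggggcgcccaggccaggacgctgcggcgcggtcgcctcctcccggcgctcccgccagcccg
Only the Nkx2-2 window held a match, a CAGATG at base 31 on the strand opposite to the one printed. CAGATG occurred in 17.2% of all windows and in 3 of the 30 markers with a window, and CATATG in 3.91% and in 0. The Lhx2 window is 74.7% G or C with 34 CG pairs, against 60.0% with 17 for Cspg4 and 59.7% with 17 for Nkx2-2.

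Sox6, a SOX factor that keeps oligodendrocyte precursors immature, was low in every group. It had 6 reads in each G1C7 library and 12, 15 and 14 in G2C9, against 24, 30 and 37 in Gcontrol. The 3 groups did not overlap. Sox6 fell by 2.29 ± 0.33 on the log2 scale in G1C7 (adjusted p = 0.00240) and kept that call without each library in turn. Its log2 fold change was -1.01 ± 0.30 in G2C9 (adjusted p = 0.0599), and it passed there without G1C7 replicate 2 (adjusted p = 0.0491). Vcan, the proteoglycan versican, stood at 21.1, 12.6 and 18.8 RPKM in G1C7 and 36.6, 28.7 and 22.5 in G2C9, against 17.1, 14.5 and 17.3 in Gcontrol. It rose in G2C9 by 0.84 ± 0.22 on the log2 scale (adjusted p = 0.0392), and its log2 fold change in G1C7 was 0.10 ± 0.22 (adjusted p = 0.793). The call in G2C9 ended without G1C7 replicate 3, without G2C9 replicate 1 or 2 and without any of the Gcontrol libraries (adjusted p up to 0.148). Of the 30 tested genes within 5 Mb of Vcan on chromosome 13, 16 were called higher and 0 lower in G2C9, with a median of 0.58, and 17 and 0 in G1C7, with a median of 0.57.

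Of the precursor markers, 8 of 10 were tested, with 3 higher and 2 lower in G1C7, where 8.77% and 8.73% of all genes were, and 1 higher and 1 lower in G2C9, where 6.25% and 7.22% of all genes were. Lhx2, a LIM homeodomain factor of forebrain and eye progenitors, rose in both derivatives. Lhx2 (ENSMUSG00000000247.11, chromosome 2, 38339281 to 38369733, plus strand) stood at 2.27, 1.86 and 2.12 RPKM in G1C7 and 2.06, 2.09 and 1.96 in G2C9, against 0.938, 0.967 and 1.04 in Gcontrol. No derivative library reached down to the Gcontrol range. The log2 fold change was 1.09 ± 0.13 in G1C7, at an adjusted p of 0.00123, and 1.05 ± 0.13 in G2C9, at an adjusted p of 0.00160, held without each library in turn, and the genes within 5 Mb had medians of 0.21 in G1C7 and 0.16 in G2C9. Msi2, the RNA-binding protein Musashi 2 of stem cells, fell a little in both. It stood at 6.92, 6.81 and 6.78 RPKM in G1C7 and 7.08, 7.04 and 7.13 in G2C9, against 8.15, 8.58 and 8.55 in Gcontrol. Its log2 fold change was -0.30 ± 0.07 in G1C7, at an adjusted p of 0.0163, and -0.25 ± 0.07 in G2C9, at an adjusted p of 0.0399. The tested genes within 5 Mb of Msi2, on chromosome 11, had medians of -0.24 in G1C7 and -0.28 in G2C9, close to its own change. The call of Msi2 in G1C7 ended without G1C7 replicate 1 or 3 or any Gcontrol library (adjusted p up to 0.0739), and that in G2C9 was kept only without G1C7 replicate 2 (up to 0.158 otherwise).

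Nes, which encodes the precursor filament nestin, differed between the derivatives. Nes (ENSMUSG00000004891.16, chromosome 3, 87971078 to 87980451, plus strand) stood at 24.7, 23.3 and 23.4 RPKM in G1C7 and 15.8, 15.1 and 14.0 in G2C9, against 18.6, 16.8 and 19.2 in Gcontrol. All G1C7 libraries lay above Gcontrol and all G2C9 libraries below it. Nes rose by 0.38 ± 0.08 on the log2 scale in G1C7 (adjusted p = 0.0155) and stood at -0.28 ± 0.08 in G2C9 (adjusted p = 0.0594). The call in G1C7 ended without G1C7 replicate 1, Gcontrol replicate 1 or Gcontrol replicate 2 (adjusted p up to 0.0806), and Nes passed in G2C9 with DESeq2 (adjusted p = 0.0103) or without G1C7 replicate 2 (adjusted p = 0.0286). Of the 159 tested genes within 5 Mb of Nes, 47 were called lower and 2 higher in G1C7, with a median of -0.42, while Nes itself was called higher. Vim rose in G1C7 by 0.30 ± 0.09 on the log2 scale (adjusted p = 0.0428), with 481, 448 and 486 RPKM in G1C7, against 388, 381 and 380 RPKM in Gcontrol. This call was kept only without G1C7 replicate 2 or without G2C9 replicate 3 (adjusted p up to 0.163 otherwise). In G2C9, Vim stood at 411, 437 and 389 RPKM (log2 fold change 0.11 ± 0.09, adjusted p = 0.476). The 37 tested genes within 5 Mb of Vim, on chromosome 2, had medians of 0.25 in G1C7 and 0.22 in G2C9. In G1C7 that median was close to the change of Vim itself, with 6 of these genes called higher and 0 lower.

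Pax6, a factor of forebrain and eye precursors, was close to silent. It had 20, 6 and 8 reads in G1C7 and 34, 34 and 46 in G2C9, against 45, 38 and 36 in Gcontrol. Pax6 fell by 1.78 ± 0.44 in G1C7 on the log2 scale (adjusted p = 0.0268). That call ended without G1C7 replicate 3 or any Gcontrol library (adjusted p up to 0.0991). Its log2 fold change in G2C9 was 0.06 ± 0.41 (adjusted p = 0.947). Msi1, the neural RNA-binding protein Musashi 1, had 8, 20 and 4 reads in G1C7 and 4, 6 and 48 in G2C9, against 17, 28 and 16 in Gcontrol, and passed in neither derivative. The highest count of each derivative was in the library that stood apart. Without those 2 libraries Msi1 was called lower in both, at -1.72 in G1C7 with an adjusted p of 0.0229, and at -1.86 in G2C9 with an adjusted p of 0.0186.

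**Figure D3:**
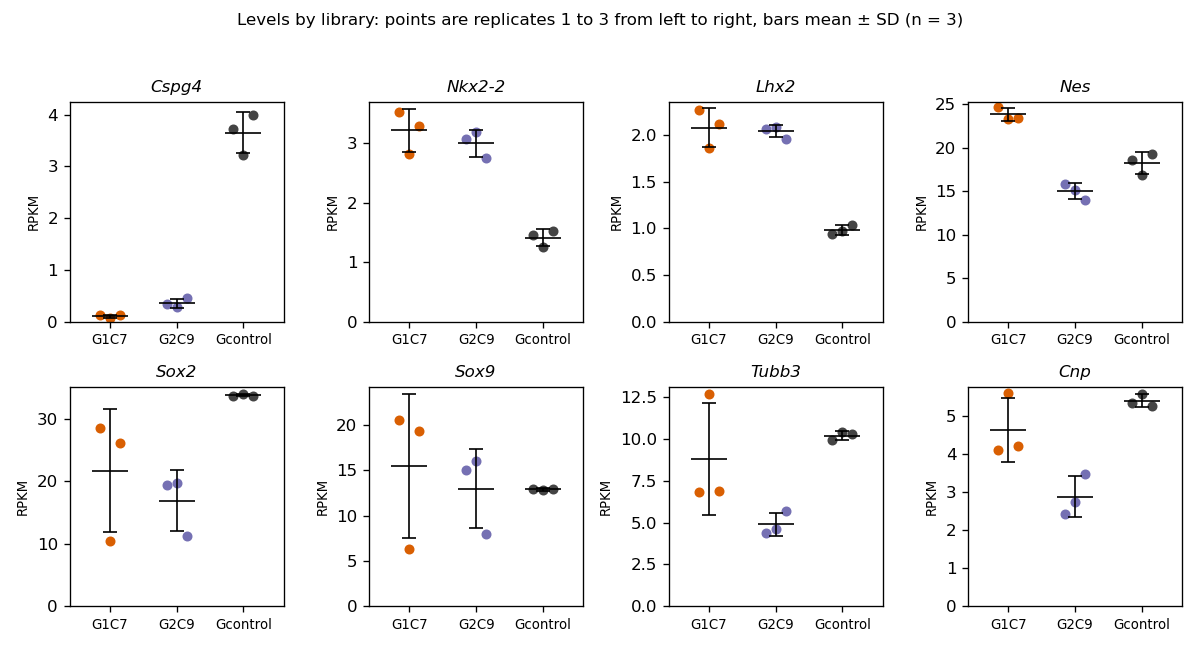
RPKM of 8 markers by library, with replicates 1 to 3 from left to right in each group and bars for mean ± SD (n = 3). Cspg4 falls and Nkx2-2 and Lhx2 rise in all 6 derivative libraries, while G1C7 replicate 2 and G2C9 replicate 3 lie lowest of their groups for Sox2 and Sox9 and highest for Tubb3 and Cnp.

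Sox2 and Sox9 separated the libraries within each derivative. Sox2 keeps neural precursors undifferentiated and stood at 28.5, 10.4 and 26.2 RPKM in G1C7 and 19.5, 19.8 and 11.3 in G2C9, against 33.7, 34.0 and 33.7 in Gcontrol. All 6 derivative libraries lay below Gcontrol, and the lowest of each derivative were the ones that stood apart, G1C7 replicate 2 and G2C9 replicate 3. The log2 fold change was -0.64 ± 0.35 in G1C7, at an adjusted p of 0.252, and -1.0 ± 0.35 in G2C9, at an adjusted p of 0.101. Sox2 passed in neither, but did in G2C9 with DESeq2 (adjusted p = 0.0306). Without those 2 libraries its log2 fold change was -0.30 in G1C7, at an adjusted p of 5.52e-05, and -0.78 in G2C9, at an adjusted p of 9.29e-10, and without G1C7 replicate 2 alone Sox2 passed in G2C9 (adjusted p = 0.00633). Sox9, a factor of astrocytes and radial glia, stood at 20.6, 6.34 and 19.4 RPKM in G1C7 and 15.1, 16.0 and 8.01 in G2C9, against 12.9, 12.8 and 13.0 in Gcontrol. The 2 libraries that stood apart lay below Gcontrol and the other 4 derivative libraries above it. The log2 fold change was 0.26 ± 0.41 in G1C7, at an adjusted p of 0.710, and 0.01 ± 0.41 in G2C9, at an adjusted p of 0.989. Without the 2 libraries it was 0.63 in G1C7, at an adjusted p of 4.48e-09, and 0.27 in G2C9, at an adjusted p of 1.56e-04. Sox4, a SOX factor of immature neural cells, stood at 27.3, 40.3 and 27.2 RPKM in G1C7 and 25.1, 24.4 and 32.5 in G2C9, against 28.1, 29.6 and 27.7 in Gcontrol. It passed in neither derivative.

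Of the other 7 markers of astrocytes and radial glia, 4 were tested. Aldh1l1, a folate enzyme of astrocytes, fell in G1C7 by 1.61 ± 0.47 on the log2 scale (adjusted p = 0.0452) and stood at -1.49 ± 0.47 in G2C9 (adjusted p = 0.0688), where it passed without G1C7 replicate 2 (adjusted p = 0.0483), with DESeq2 (adjusted p = 0.0448) and with limma-voom (adjusted p = 0.0451). It had 6, 6 and 12 reads in G1C7 and 8, 12 and 4 in G2C9, against 23, 23 and 29 in Gcontrol, and its call was kept only without G2C9 replicate 3 (adjusted p up to 0.152 otherwise). Aldh1l1 passed the filter on low counts through its Gcontrol libraries, where it was highest, so a fall was the likelier call. With no such filter the call ended (adjusted p = 0.0939). The astrocyte glutamate transporters were low, and in each derivative highest in the library that stood apart. Slc1a2 (GLT-1) stood at 0.111, 0.280 and 0.121 RPKM in G1C7 and 0.127, 0.152 and 0.268 in G2C9, against 0.104, 0.0647 and 0.0819 in Gcontrol, with log2 fold changes of 1.03 ± 0.44 in G1C7 and 1.12 ± 0.44 in G2C9 (adjusted p = 0.147 and 0.136). Slc1a2 passed in G2C9 without G1C7 replicate 2 (adjusted p = 0.0324). Slc1a3 (GLAST) stood at 0.438, 1.09 and 0.359 RPKM in G1C7 and 0.211, 0.158 and 0.393 in G2C9, against 0.481, 0.489 and 0.508 in Gcontrol, and passed in neither derivative (adjusted p = 0.649 in G1C7 and 0.224 in G2C9). Without the 2 libraries that stood apart, Slc1a3 in G2C9 was called lower at -1.41 on the log2 scale (adjusted p = 1.71e-06). Gfap, the filament protein of astrocytes, had between 8 and 18 reads in a library, and its groups overlapped.

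Of the 5 myelin markers, 3 were tested, with 1 called in G2C9 and 0 in G1C7. Over all genes tested, 13.5% were called in G2C9 and 17.5% in G1C7. Cnp, a phosphodiesterase of myelin that other cells also express, stood at 4.10, 5.61 and 4.22 RPKM in G1C7 and 2.42, 2.75 and 3.47 in G2C9, against 5.35, 5.59 and 5.27 in Gcontrol. It fell in G2C9 by 0.91 ± 0.17 on the log2 scale (adjusted p = 0.00950) and kept that call without each library in turn. Its log2 fold change was -0.22 ± 0.17 in G1C7 (adjusted p = 0.414), and -0.38 without the 2 libraries that stood apart, where it was called lower (adjusted p = 3.78e-04). The tested genes within 5 Mb of Cnp on chromosome 11 had medians of -0.30 in G2C9 and -0.27 in G1C7, and Dnajc7, on the other strand, shares 12.7% of its exon bases. Mbp, myelin basic protein, had 10, 132 and 14 reads in G1C7 and 14, 6 and 40 in G2C9, against 108, 104 and 108 in Gcontrol. G1C7 replicate 2 alone of the derivative libraries reached the Gcontrol level. The log2 fold change of Mbp was -1.03 ± 0.92 in G1C7, at an adjusted p of 0.490, and -2.29 ± 0.98 in G2C9, at an adjusted p of 0.168. Without the 2 libraries that stood apart it was -3.11 in G1C7, at an adjusted p of 3.57e-07, and -3.26 in G2C9, at an adjusted p of 3.70e-07. Without G1C7 replicate 2 alone Mbp passed in both derivatives (adjusted p = 0.00951 and 0.0131). Myrf, the factor that turns on myelin genes, had between 4 and 20 reads in a library and passed in neither derivative.

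Of the 4 neuronal markers, Tubb3 and Map2 were tested. Tubb3, βIII-tubulin, which glioma cells can also express, stood at 6.82, 12.7 and 6.88 RPKM in G1C7 and 4.38, 4.63 and 5.70 in G2C9, against 9.94, 10.4 and 10.3 in Gcontrol. It fell in G2C9 by 1.06 ± 0.24 on the log2 scale (adjusted p = 0.0215), and stood at -0.21 ± 0.24 in G1C7 (adjusted p = 0.586), where replicates 1 and 3 lay below Gcontrol and replicate 2 above it. The call in G2C9 ended without G2C9 replicate 1 or 2 or any Gcontrol library (adjusted p up to 0.0802). Without G1C7 replicate 2, Tubb3 passed in G1C7 at -0.57 (adjusted p = 0.0108). Map2, a microtubule protein of dendrites, stood at 1.30, 1.15 and 1.33 RPKM in G1C7 and 0.969, 0.950 and 0.701 in G2C9, against 1.18, 1.22 and 1.21 in Gcontrol. Its log2 fold change was 0.06 ± 0.13 in G1C7, at an adjusted p of 0.792, and -0.46 ± 0.14 in G2C9, at an adjusted p of 0.0547, and it passed in G2C9 without G1C7 replicate 2 (adjusted p = 0.0268), with DESeq2 (adjusted p = 0.0129) and with limma-voom (adjusted p = 0.0476).

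Of the mesenchymal markers, Cd44 stood at 82.3, 72.9 and 80.9 RPKM in G1C7 and 95.6, 98.8 and 103 in G2C9, against 78.3, 82.1 and 77.2 in Gcontrol. Cd44 rose in G2C9 by 0.32 ± 0.08 on the log2 scale (adjusted p = 0.0361) and its log2 fold change in G1C7 was -0.01 ± 0.08 (adjusted p = 0.953). The call in G2C9 was kept only without G1C7 replicate 2 (adjusted p up to 0.160 otherwise). Zeb1, a repressor of epithelial genes, stood at 7.79, 12.6 and 7.64 RPKM in G1C7 and 7.98, 7.74 and 10.2 in G2C9, against 7.38, 7.10 and 7.22 in Gcontrol. All derivative libraries lay above Gcontrol, highest in the 2 that stood apart, and Zeb1 passed in neither derivative (adjusted p = 0.237 and 0.458).

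Tested directly, G1C7 and G2C9 differed in 2 of the 24 markers, where 3.36% of all genes were called, 1.71% higher and 1.65% lower in G1C7. Nes was higher in G1C7 than in G2C9 by 0.67 ± 0.08 on the log2 scale (adjusted p = 0.00450), and Cspg4 was lower by a log2 fold change of -1.71 ± 0.24 (adjusted p = 0.00727). Both differences held in each of the 9 fits that left out a library. For Nkx2-2 and Lhx2 the difference between the derivatives was 0.10 ± 0.15 and 0.03 ± 0.13 (adjusted p = 0.852 and 0.957). For Cnp, Tubb3, Map2 and Vcan it was 0.69 ± 0.17, 0.84 ± 0.24, 0.53 ± 0.14 and -0.74 ± 0.22, and none of them passed (adjusted p of 0.0686 to 0.135), although all 4 did with DESeq2 (adjusted p = 0.00463, 0.0187, 0.0109 and 0.0280). Pax6 at -1.84 (adjusted p = 0.0660) and Cd44 at -0.33 (adjusted p = 0.0758) also passed only with an alternative tool or fewer libraries, Pax6 with DESeq2 (adjusted p = 0.00263) and limma-voom (adjusted p = 0.0408), and Cd44 with DESeq2 (adjusted p = 4.04e-04). The libraries of G1C7 and G2C9 did not overlap for 12 of 24 markers, against 18.2% of all genes.

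The markers moved within the derivatives as well as between groups. In 8 of 24 (33.3%), Sox4, Msi1, Mbp, Cnp, Slc1a2, Slc1a3, Tubb3 and Zeb1, both G1C7 replicate 2 and G2C9 replicate 3 lay above the other libraries of their group. In 9 (37.5%), Sox2, Nes, Vim, Lhx2, Nkx2-2, Vcan, Sox9, Aldh1l1 and Map2, both lay below them. Over all genes tested the shares were 34.3% and 32.1%, so the markers followed this split about as often as other genes. The fits without the 2 libraries hold 2 libraries of each derivative, left by a choice made on these same data. Their adjusted p-values are likely too small. Without the 2 libraries, 15 of 24 markers were called in G1C7, 5 higher and 10 lower, where 54.3% of all genes were called, 26.4% higher and 27.9% lower. In G2C9 19 of 24 were called, 8 higher and 11 lower, where 53.0% of all genes were called, 25.4% higher and 27.6% lower. All 9 and all 8 calls with every library were among them. The markers gained in G1C7 were Sox2, Msi1, Mbp, Cnp, Sox9 and Tubb3. Those gained in G2C9 were Sox2, Sox4, Nes, Vim, Msi1, Mbp, Sox9, Slc1a2, Slc1a3, Map2 and Zeb1. Of these, Sox4 was lower by a log2 fold change of -0.20 (adjusted p = 9.21e-04). Vim was higher at 0.15 (adjusted p = 0.00172), and Zeb1 at 0.12 (adjusted p = 0.0304). Between G1C7 and G2C9, 13 of 24 were called, 9 higher and 4 lower in G1C7, where 27.3% of all genes were called, 14.8% higher and 12.5% lower. Gained there were Sox2, Sox4, Vim, Pax6, Vcan, Cnp, Sox9, Slc1a3, Tubb3, Map2 and Cd44.

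**Figure D4:**
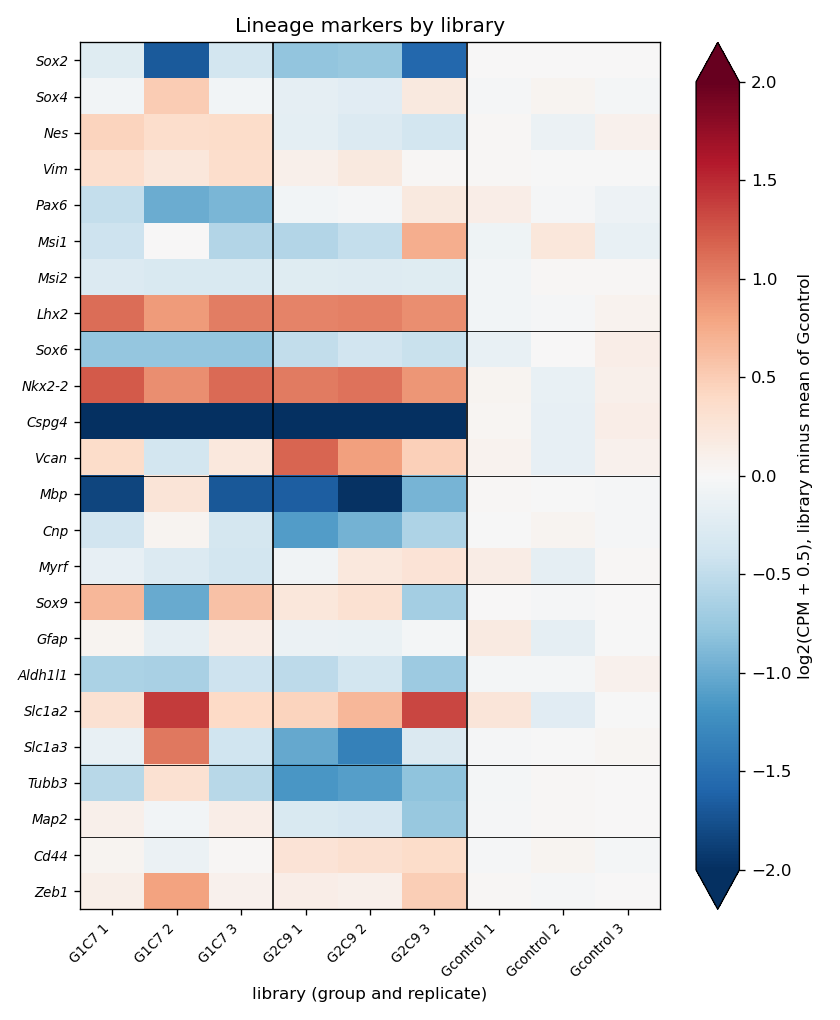
Each tested marker (rows) in each library (columns), as log2(CPM + 0.5) minus the mean of Gcontrol, with blue lower and red higher and the scale ending at -2 and 2. Cspg4 is low and Lhx2 and Nkx2-2 are high in all 6 derivative libraries, while Sox2, Sox9, Slc1a2, Slc1a3 and Mbp set G1C7 replicate 2 and G2C9 replicate 3 apart from the others of their groups.

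Other genes of the same lineages, from lists of known markers, moved in both directions. Of 12 further genes of oligodendrocyte precursors, 5 were tested. Pdgfra, the PDGF receptor of these precursors, rose in G1C7 by 0.63 on the log2 scale (adjusted p = 0.0427) and in G2C9 by 0.85 (adjusted p = 0.0160), opposite to Cspg4. In each derivative Pdgfra was highest in the library that stood apart. For these further genes no fit with a library left out is given. Tcf7l2, a factor of oligodendrocyte maturation, fell in G1C7 by 0.49 (adjusted p = 0.0274), and Sox5, a relative of Sox6, rose in G2C9 by 0.74 (adjusted p = 0.0281). Ptprz1, Nkx6-2 and Zfp488 had 0 reads in all 9 libraries. Of 12 further precursor genes, 6 were tested. Sox11, a SOX factor of immature neural cells, had 0 reads in G1C7 and 0 in G2C9, against 521 in Gcontrol, at least 85.9-fold lower in G1C7 and 79.3-fold lower in G2C9. This loss was not particular to a precursor gene. Cmpk2, at the same locus on chromosome 12, had 2 reads in G1C7 and 2 in G2C9, against 164 in Gcontrol. Rsad2, also at this locus, had 2 reads in G1C7 and 0 in G2C9, against 232 in Gcontrol. The cause was not tested. Notch1, a receptor that keeps precursors from differentiating, fell in G2C9 by 2.41 (adjusted p = 0.00205).

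Of 12 further astrocyte genes, 11 were tested, with 1 higher and 1 lower in each derivative, near the shares over all genes of 8.77% and 8.73% in G1C7 and 6.25% and 7.22% in G2C9. Slc4a4, a bicarbonate transporter, rose by 1.57 in G1C7, at an adjusted p of 0.00421, and 1.35 in G2C9, at an adjusted p of 0.00935 on the log2 scale. It stood at 1.76, 3.38 and 1.69 RPKM in G1C7, highest in the library that stood apart. Glul, glutamine synthetase, fell by 0.66 in G1C7, at an adjusted p of 9.23e-04, and 0.55 in G2C9, at an adjusted p of 0.00238. Of 9 further myelin genes 3 were tested, and Aspa, aspartoacylase, fell in G2C9 by 2.25 (adjusted p = 0.00172). Of 12 further neuronal genes 4 were tested. Gap43, a growth cone protein, rose in G2C9 by 1.34 (adjusted p = 0.0280). It stood at 11.0, 10.4 and 19.8 RPKM in G2C9, highest in the library that stood apart, against 5.66, 5.36 and 5.19 in Gcontrol. Nefm, a neurofilament, had 2 reads in G1C7 and 0 in G2C9, against 70 in Gcontrol, called lower in both and at least 10.7-fold lower in G2C9. Nefm passed the filter on low counts through Gcontrol alone, so the direction of its calls was set by that filter.

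Markers of other cells that a culture could hold were read for comparison. Of the 8 fibroblast and pericyte genes 6 were tested and 0 were called in either derivative, which does not show that they were unchanged. Over all genes tested, 17.5% were called in G1C7 and 13.5% in G2C9. The summed level of the 8 genes was 738 to 1703 RPKM in G1C7 and 898 to 1581 in G2C9, against 1044 to 1087 in Gcontrol. It was highest in the 2 libraries that stood apart, where Col1a1, a fibrillar collagen, reached 537 RPKM in G1C7 replicate 2 and 390 RPKM in G2C9 replicate 3, against 202 to 217 and 195 to 205 RPKM in the others of G1C7 and of G2C9 and 393 to 435 RPKM in Gcontrol. The leukocyte marker Ptprc stood at no more than 0.00399 RPKM in any library. The 7 microglia and leukocyte genes summed to 6.59 to 21.7 RPKM in G1C7 and 13.2 to 41.0 in G2C9, against 14.1 to 14.9 in Gcontrol, nearly all of it Tmem119, and Csf1r was lower in G1C7 (log2 fold change -1.45, adjusted p = 0.0138). The summed endothelial genes lay between 0.203 and 1.02 RPKM, with Tie1 and Emcn at 0 reads, and Cdh5 rose in G2C9 by 2.28 on the log2 scale (adjusted p = 7.38e-04). The epithelial genes summed to between 0.102 and 0.282 RPKM. The 6 genes of Schwann cells and neural crest summed to 51.9 to 70.9 RPKM in G1C7 and 48.7 to 84.3 in G2C9, against 58.9 to 61.4 in Gcontrol, most of it Pmp22, with Foxd3 at 0 reads. The part of these lists in the marker results was not tested.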

How the data were processed

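Polyadenylated RNA of 9 NP53 libraries was sequenced in pairs with a stranded kit, per the labels' protocols. The authors deposited counts of reads per gene, made with featureCounts 1.6.0 on exons of GENCODE vM25 (GRCm38), per the file headers. STAR 2.6.1c and FastQC 0.11.8 are named in the submitters' processing notes. In 9 of 9 headers the options for pairs, strand and multi-mapping reads were absent, so mates were counted singly, strand was ignored, and reads in overlapping genes were dropped. Exon lengths and coordinates came from the same deposited tables. Symbols came from GENCODE vM21 (55141 of 55401 IDs matched).

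From the counts, CPM and RPKM were computed with TMM factors (0.978 to 1.03). Genes were kept with filterByExpr (15659), and the 9 libraries were fitted together with edgeR 4.0.16 (R 4.3.3; quasi-likelihood, robust, 6 residual degrees of freedom) with Benjamini-Hochberg adjustment over all genes. Each SE was derived as the size of the log2 fold change divided by √F. DESeq2 1.42.0 and limma-voom (limma 3.58.1) were alternatives, and all were tested on simulated counts. No pairing of libraries by replicate number was seen. The correlation of same-numbered deviations ranged from -0.557 to 0.409. The 2 libraries that stood apart carry different numbers (correlation 0.677), and a smaller shared effect could be hidden by them. Within groups, libraries differed by a chi-square of at least 4.64 per degree of freedom, so none was a copy of another's counts. This does not tell technical repeats from separate cultures. Medians of neighbours cover tested genes within 5 Mb. All 38 markers were read out. Of further lists, up to 2 most raised and 2 most lowered called genes were named. Genes at 0 reads and Col1a1, Tmem119, Pmp22 and Ptprc were picked after their values were seen. So were Cmpk2 and Rsad2, given beside Sox11. Markers and lists were chosen with earlier results of these data known. Start windows were matched by symbol for 30 of 38 markers. A result of the further lists is not reported here.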

Additional observations from a re-analysis of the deposited data

Results flagged for a closer look

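Nes and Cspg4 were the tested markers whose change against Gcontrol differed between the derivatives by the direct test. For Nes, G1C7 over G2C9 gave 0.67 on the log2 scale (adjusted p = 0.00450), with 3 of 3 G1C7 libraries above and 3 of 3 G2C9 libraries below Gcontrol. For Cspg4 it gave -1.71 (adjusted p = 0.00727), with 3 of 3 libraries of both derivatives below Gcontrol. With 3 libraries a group, no single marker was searched for outlying values beyond the defaults of DESeq2. That tool gave no adjusted p for Mbp in any comparison and so covered 23 markers. The 2 libraries that stood apart were found over all genes.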

How the results depend on the processing

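Of the marker calls, Cspg4, Nkx2-2 and Lhx2 in both derivatives, Sox6 in G1C7, Cnp in G2C9, and Nes and Cspg4 between the derivatives held under every alternative run. The number of markers called ranged, with a library left out, from 4 to 10 in G1C7, from 4 to 15 in G2C9 and from 2 to 4 between G1C7 and G2C9. Over all genes it ranged from 1181 to 4133, from 878 to 4113 and from 186 to 1286. The highest number came each time without G1C7 replicate 2. Without both libraries that stood apart, and so with 2 libraries of each derivative, 15, 19 and 13 markers and 8581, 8383 and 4320 genes were called. DESeq2 called 3190 genes and 12 markers in G2C9, gaining Sox2, Nes, Aldh1l1 and Map2, and, between the derivatives, 1267 genes and 8 markers. With replicate number as a block, 5, 5 and 2 markers and 1532, 1114 and 164 genes were called. No pairing by number was seen, but a small one could have been missed.

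The cause of these shifts was not tested. Changes of sign under these alternatives occurred only where a marker was not called in the comparison concerned. Without both libraries that stood apart, the log2 fold change over Gcontrol in G1C7 was -0.06 for Sox4, -0.30 for Slc1a3 and 0.05 for Cd44, that in G2C9 was -0.08 for Pax6 and -1.86 for Msi1, and G1C7 over G2C9 gave 0.14 for Msi1 and -0.03 for Zeb1. Msi1 in G2C9 was -0.70 with limma-voom and -0.24 with the replicate block, and Sox9 in G2C9 was -0.05 with limma-voom. With a library left out, the range in G1C7 was -0.06 to 0.24 for Sox4, -0.05 to 0.30 for Vcan, -0.00 to 0.64 for Sox9, -0.23 to 0.34 for Gfap, -0.30 to 0.62 for Slc1a3 and -0.04 to 0.05 for Cd44. In G2C9 it was -0.20 to 0.03 for Sox4, -0.07 to 0.17 for Pax6, -1.85 to 0.51 for Msi1 and -0.15 to 0.28 for Sox9. For G1C7 over G2C9 it was -0.00 to 0.34 for Sox4, -1.75 to 0.93 for Msi1, -0.03 to 0.11 for Lhx2, -0.82 to 2.22 for Mbp, -0.02 to 0.62 for Sox9, -0.53 to 0.30 for Aldh1l1, -0.65 to 0.28 for Slc1a2 and -0.16 to 0.24 for Zeb1. The number of silent markers was 13 with a limit of 20 reads and 9 by mean RPKM under 0.01. Depth limits the markers under about 50 reads a library, such as Pax6, Sox6, Aldh1l1 and Msi1.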
